A study of Homo sapiens with 6 samples.

Results

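The genes described here encode the ephrins and their Eph receptors, the slits and their ROBO receptors, the netrins and their UNC5 and DCC receptors, and the plexins. They were chosen by symbol: every protein-coding gene of the count table whose symbol begins with EPHA, EPHB, EFNA, EFNB, ROBO, UNC5 or PLXN, with SLIT and a digit from 1 to 3, or with NTN and a digit, together with DCC. This gave 50 of the 60664 genes in the table, of which 19942 are protein-coding. The RNA came from U-2 OS, a human osteosarcoma cell line, with 3 libraries of cells transfected with a non-targeting control siRNA (siCTRL) and 3 of cells transfected with siRNA against SFPQ (siSFPQ), with siRNA at 30 nM. SFPQ is a nuclear protein that binds RNA and DNA. Its knock-down was used in the study to ask what is lost when the protein is missing, and the question for the guidance genes is how their mRNA levels changed and whether the change followed gene span, the distance from the start to the end of a gene with its introns.

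Axon guidance molecules steer growing nerve fibres, and outside the nervous system they act in cell migration, vessel growth, tissue boundaries and cancer cell invasion. Ephrins are held on the cell surface and signal to Eph receptor tyrosine kinases on a neighbouring cell. Ephrin-A proteins carry a lipid anchor and ephrin-B proteins a transmembrane stretch. Slits are secreted proteins that repel cells through ROBO receptors. Netrins are secreted, laminin-related proteins that attract through DCC and repel through UNC5 receptors. Plexins are the receptors of semaphorins.

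The symbol rule also took in UNC50, a protein of intracellular membranes, and UNC5CL, a death domain protein without a known role as a netrin receptor, as well as EFNA4-EFNA3, a read-through gene over EFNA4 and EFNA3. EFNA4-EFNA3 had 0 counts in all 6 libraries and was not tested. The other 49 had at least 10 counts in total and were tested, 41 of them with a mean of at least 1 CPM (counts scaled to a common library size). EPHA7 and EFNB2 were close to the limit of detection, with no library above 10 counts. The libraries held 43469321 to 47119203 counts, so that 3 counts, taken as the floor, are worth 0.0637 to 0.069 CPM. Reads were counted, not molecules, and such limits cover counting error only. SFPQ had 21753 to 23139 counts in the siCTRL libraries and 3140 to 3863 in siSFPQ, a log2 fold change of -2.73 (SE 0.050, where SE is the standard error; adjusted p = 6.34e-30). Of the bone-forming lineage markers, COL1A1, SPARC and RUNX2 were well expressed, whereas SP7 had at most 5 counts in any library, BGLAP at most 6 and IBSP at most 1. Summed levels of the other marker lists were 132 to 138 CPM in siCTRL and 151 to 158 CPM in siSFPQ for 10 neuron genes, carried mostly by the neurofilament gene NEFL. They were 8.22 to 10.0 against 8.95 to 9.78 CPM for 6 endothelial genes and 0.918 to 0.986 against 0.963 to 1.31 CPM for 6 leukocyte genes. CD3E and LYZ of the latter list had at most 3 counts in any library. Of the 8 bone markers tested 4 fell and 1 rose, with summed levels of 5077 to 5413 CPM in siCTRL and 4325 to 4358 CPM in siSFPQ. Of the 10 neuron genes 2 rose (NEFL and STMN2) and 3 fell (RBFOX3, SNAP25 and SYT1). In the endothelial list 2 rose and 2 fell, and in the leukocyte list ITGAM rose and PTPRC fell. Over all genes tested 22.1% fell and 22.4% rose, and over protein-coding genes 30.9% and 28.0%, so with so few genes these counts are not a result about the lists. The part of these lists in the results below was not tested.

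After SFPQ knock-down many guidance genes were strongly lower. Of the 49 tested, 24 (49.0%) fell and 13 (26.5%) rose by the quasi-likelihood test of edgeR (adjusted p under 0.05). Among all 29022 genes tested, 22.1% were lower, 22.4% higher and 44.6% called either way. Among the 16477 protein-coding genes tested these shares were 30.9%, 28.0% and 59.0%. The share of members that rose thus lay between those of all genes and of protein-coding genes. A log2 fold change under -1.5, the limit used in the study, was passed by 13 members: ROBO1 and ROBO2, EPHA3, EPHA6, EPHB1 and EPHB2, EFNA5, SLIT2, NTN1, UNC5A, UNC5C and UNC5D, and DCC. No member passed 1.5 upwards, where 4.77% of all genes passed the lower and 5.54% the upper limit, and 4.97% and 3.28% of the protein-coding genes. In RNA from whole cultures, fewer cells that express a gene and less of its RNA per cell cannot be told apart. The median log2 fold change of the members was -0.18, against 0.02 over all genes tested. In 38 members the libraries of the groups did not overlap, against 52.3% of all genes tested and 65.2% of the protein-coding genes. The siSFPQ libraries were the lower ones in 25 members (25.4% of all genes, 33.6% of the protein-coding genes) and the higher ones in 13 (26.9% and 31.5%).

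**Figure D1:**
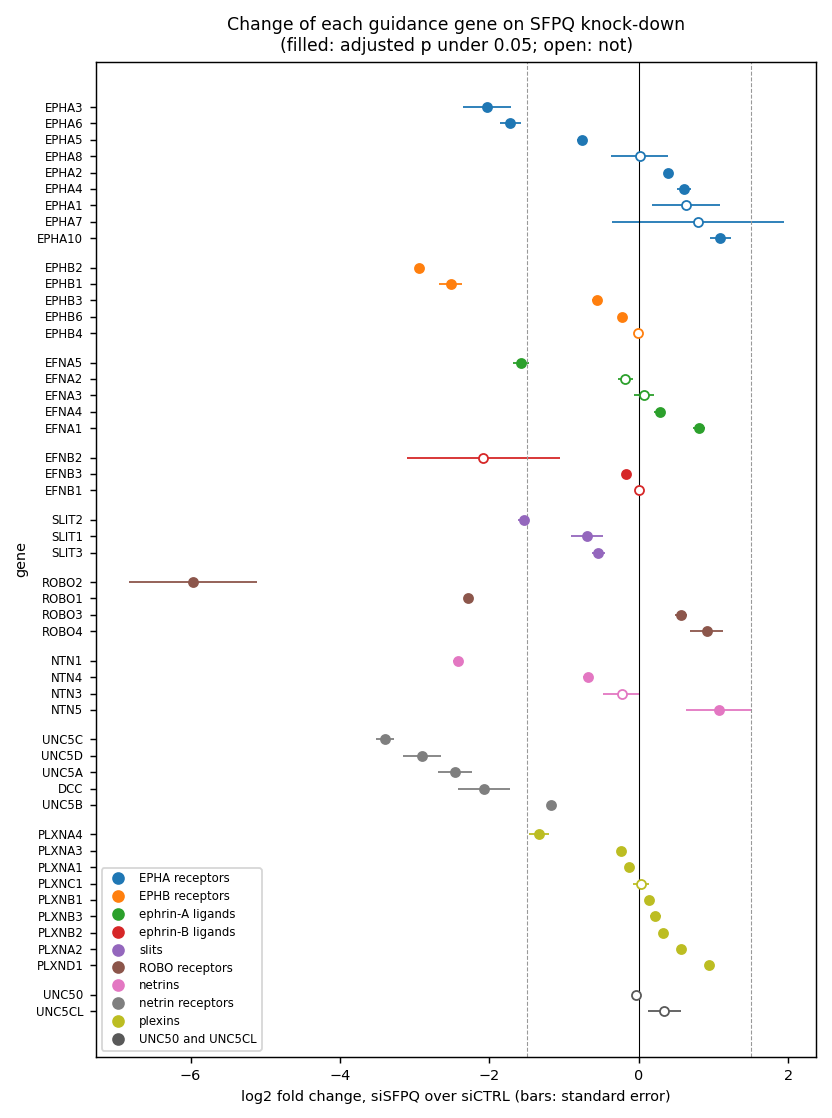
Log2 fold change (x axis, siSFPQ over siCTRL, with its standard error) of each of the 49 tested genes, grouped by family; filled points have an adjusted p under 0.05 and dashed lines mark -1.5 and 1.5. All 5 netrin receptors lie left of 0, while the plexins spread on both sides and only PLXNA4 comes near the lower line.

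The secreted netrins were led by NTN1 and NTN4. NTN1 (ENSG00000065320, chromosome 17, 9021510 to 9244000, GRCh38), the classic long-range guidance cue, had 2100, 2223 and 2034 counts in siCTRL replicates 1, 2 and 3 and 343, 403 and 446 in siSFPQ replicates 1, 2 and 3. Every siSFPQ library was far below every siCTRL library, with a log2 fold change of -2.42 with an SE of 0.068 (adjusted p = 9.05e-25). NTN4, a netrin of basement membranes, fell from 1407 ± 75.0 to 880 ± 79.7 normalized counts (mean ± SD of 3 libraries), with a log2 fold change of -0.68. NTN3 had 48 to 66 counts in siCTRL and 34 to 62 in siSFPQ and did not pass the test (adjusted p = 0.491). NTN5 rose from 8 to 13 counts to 18 to 24, with an adjusted p of 0.046 that was lost whichever library was left out except siCTRL replicate 1. Per kilobase of merged exon, NTN1 held 47.3% to 49.5% of the summed netrin level in siCTRL and 20.2% to 22.1% in siSFPQ, and NTN4 held 46.3% to 48.4% and then 67.0% to 70.7%. The summed level was 14.3 to 15.3 RPKM (CPM per kilobase of merged exon) in siCTRL and 5.98 to 6.79 RPKM in siSFPQ, with no overlap.

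All 5 netrin receptors fell, against 30.9% of the protein-coding genes tested. UNC5C (chromosome 4, 95162504 to 95549206), a repulsive receptor that promotes cell death when no netrin is bound, had 572, 653 and 591 counts in the siCTRL libraries and 62, 57 and 53 in the siSFPQ libraries. That is a log2 fold change of -3.40 with an SE of 0.122 (adjusted p = 6.54e-22), the largest fall among members with a mean of at least 1 CPM. UNC5D had 120, 146 and 94 counts in siCTRL and 16, 12 and 20 in siSFPQ. UNC5A had 98, 114 and 113 counts in siCTRL and 19, 23 and 17 in siSFPQ. In both genes the groups were well apart, with log2 fold changes of -2.90 (SE 0.253) and -2.46 (SE 0.233). DCC, the attractive receptor, was low, with 54, 38 and 56 counts in siCTRL and 16, 7 and 12 in siSFPQ. The log2 fold change was -2.07, SE 0.349, and ranged from -2.38 to -1.81 with each library left out in turn. UNC5B, the most abundant of these receptors, fell less, from 2815 ± 145 to 1252 ± 31.3 normalized counts (mean ± SD of 3 libraries), with a log2 fold change of -1.17. Its share of the summed level of the 5 receptors, per kilobase of merged exon, went from between 80.7% and 81.3% to between 93.0% and 94.1%, while that of UNC5C went from 11.0% to 11.3% down to 2.49% to 3.13%. UNC50 and UNC5CL, which share only letters with this family, had log2 fold changes of -0.04 and 0.34 and did not pass the test (adjusted p = 0.588 and 0.227).

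**Figure D2:**
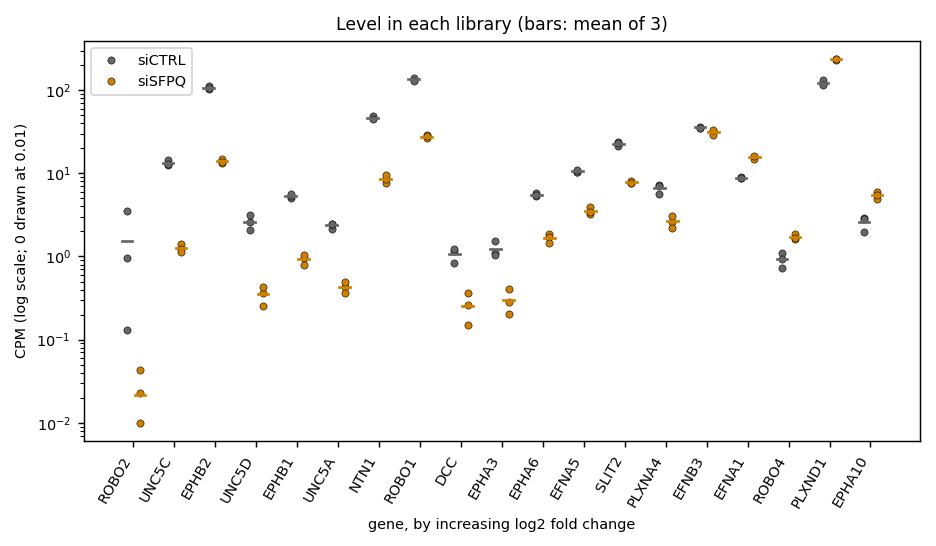
CPM (log scale) of 19 genes in each of the 3 siCTRL (grey) and 3 siSFPQ (orange) libraries, with bars at the means and a value of 0 drawn at 0.01 CPM. The genes were chosen by their calls, so the lack of overlap between the groups in all of them was largely fixed by that choice. Over all genes tested the groups did not overlap in 52.3%, and in 65.2% of the protein-coding genes. The siCTRL libraries of ROBO2 spread far more widely than those of any other gene shown.

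All 3 slits fell, and among the receptors the long and the short ROBO genes moved in opposite directions. Over the protein-coding genes tested 30.9% fell and 28.0% rose. SLIT2 (chromosome 4, 20251905 to 20620561), the slit with the highest level per length in these cells, had 983, 1089 and 1046 counts in the siCTRL libraries and 337, 380 and 358 in the siSFPQ libraries. The log2 fold change was -1.54 (SE 0.076, adjusted p = 5.19e-18), just past the limit of -1.5; with library size alone in place of TMM it was -1.48. SLIT3 fell from 465 ± 5.66 to 319 ± 16.4 normalized counts, a log2 fold change of -0.54, although it spans 639 kb. SLIT1 fell from 84.5 ± 19.5 to 52.3 ± 3.83 (mean ± SD of 3 libraries), with a log2 fold change of -0.69; it shares exons with the read-through gene ARHGAP19-SLIT1, which makes its count uncertain.

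SLIT2 and SLIT3 each hold a microRNA of the same family in an intron, in the sense of transcription: miR-218-1 lies 276 kb from the start of SLIT2 (chromosome 4, 20528275 to 20528384) and miR-218-2 lies 533 kb from the start of SLIT3 (chromosome 5, 168768146 to 168768255). Both hairpins give the same 5p strand, whose seed (bases 2 to 8, in capitals) is known to pair with ROBO1 mRNA, and different 3p strands. Hairpins on the same strand also lie in DCC (MIR4528), EPHB2 (MIR4684) and SLIT3 (MIR585), which fell too, and their sequences are not shown. The sequences of the miR-218 strands (RefSeq, GRCh38.p14, 5′ to 3′) are shown because this family lies in SLIT2 and SLIT3 alike, and both genes fell.
hsa-miR-218-5p: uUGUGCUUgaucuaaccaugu
hsa-miR-218-1-3p: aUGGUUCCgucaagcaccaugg
hsa-miR-218-2-3p: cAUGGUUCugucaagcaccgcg
The libraries were made from polyadenylated RNA, and no level of a mature microRNA was measured here.

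ROBO1 (ENSG00000169855, chromosome 3, 78597239 to 79767998), the main slit receptor of these cells, had 6107, 6489 and 5900 counts in the siCTRL libraries and 1181, 1338 and 1290 in the siSFPQ libraries. Each siSFPQ library held far fewer reads than each siCTRL library, and the log2 fold change was -2.28 (SE 0.047, adjusted p = 1.23e-28). ROBO2, the next protein-coding gene on chromosome 3 and the one with the longest span of the members at 1743 kb, had 44, 160 and 6 counts in siCTRL and 1, 0 and 2 in siSFPQ. The groups did not overlap, but the siCTRL libraries differed widely among themselves. Summed over libraries, ROBO2 had 210 counts in siCTRL and 3 in siSFPQ, a ratio of 70.2 for siCTRL over siSFPQ (95% exact Clopper-Pearson interval 23.7 to 343, counting error only). That ratio was 25.1 (8.11 to 126) without siCTRL replicate 2, which holds most of the reads, 46.4 without siSFPQ replicate 2 and 140.0 without siSFPQ replicate 3. The fitted log2 fold change of -5.97 became -4.49 without siCTRL replicate 2 and -6.79 without siSFPQ replicate 3. The leave-one-out ratios were added after seeing the data. ROBO4, a receptor known from blood vessels, rose from 50, 43 and 33 counts to 84, 76 and 77, a log2 fold change of 0.91 with an SE of 0.221 (adjusted p = 0.000944). ROBO3, which in the spinal cord lets fibres cross the midline, rose from 700, 735 and 947 counts to 1179, 1216 and 1144, a log2 fold change of 0.57. ROBO3 and ROBO4 are neighbours on chromosome 11 and are both short, ROBO4 at 14.8 kb. Per kilobase of merged exon, ROBO1 held 79.1% to 83.3% of the summed ROBO level in siCTRL and 37.0% to 39.9% in siSFPQ, where ROBO3 held 56.1% to 58.5%. The sum of the family went from between 14.5 and 15.5 RPKM to between 6.30 and 6.56 RPKM.

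ROBO1 has 2 starts in the RefSeq promoter table, 749 kb apart, and a transcript from the inner start crosses 422 kb in place of 1171 kb. The gene-level count does not tell the transcripts of these starts apart. The 150 bases before each start (GRCh38.p14, minus strand, written 5′ to 3′ in the direction of transcription, CG dinucleotides in capitals) are shown since the distance that is transcribed depends on which of them is used.
Outer start, chr3:79767999-79768148: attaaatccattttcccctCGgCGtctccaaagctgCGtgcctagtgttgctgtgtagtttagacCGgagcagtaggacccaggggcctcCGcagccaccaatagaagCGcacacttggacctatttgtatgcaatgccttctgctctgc
Inner start, chr3:79019460-79019609: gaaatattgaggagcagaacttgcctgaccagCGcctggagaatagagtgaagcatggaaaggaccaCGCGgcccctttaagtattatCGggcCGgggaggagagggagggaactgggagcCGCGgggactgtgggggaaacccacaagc
The windows hold 6 and 7 CG dinucleotides and are 53.3% and 58.7% G or C. Starts at least 100 kb apart were also listed for ROBO2 (729 kb), EPHA6 (625 kb) and PLXNC1 (114 kb). Of the members, 44 had a window of 300 bases around a RefSeq start. The median number of CG dinucleotides was 22 in the 11 that passed the limit of -1.5 and 22 in the other 33. It was 14 over all 27305 genes with such a window. These outnumber the 19942 protein-coding genes of the counts, so that set was not limited to protein-coding genes, as the members are. Whether the members differed from other protein-coding genes in CG dinucleotides was not tested.

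Among the Eph receptors, 4 of the 5 EPHB genes fell and EPHB4 did not pass the test. Of the 9 EPHA genes 3 rose and 3 fell, 33.3% each way. Over the protein-coding genes tested 28.0% rose and 30.9% fell, so the EPHA counts are not a result about that family. EPHB2 (ENSG00000133216, chromosome 1, 22710839 to 22921500), a receptor that sorts cells at tissue boundaries, had 4765, 5134 and 4781 counts in the siCTRL libraries and 599, 690 and 629 in siSFPQ. The fitted change was -2.94 on the log2 scale, SE 0.052 (adjusted p = 3.01e-30), a fold of 0.130. EPHB1 had 229, 242 and 259 counts in siCTRL and 42, 48 and 37 in siSFPQ, a log2 fold change of -2.52 (SE 0.159). The short genes of the group changed less: EPHB3 (20.6 kb) fell by 0.56 and EPHB6, whose kinase domain is inactive, by 0.22 on the log2 scale, the latter with an adjusted p of 0.0529 without siSFPQ replicate 1. EPHB4, a receptor of veins and the most abundant of the group per length, went from 5213 ± 384 to 5169 ± 24.0 normalized counts (adjusted p = 0.857). In percent of the summed EPHB level per kilobase of merged exon, EPHB2 held 20.5% to 22.2% in siCTRL and 3.75% to 4.09% in siSFPQ, and EPHB4 held 42.9% to 45.9% and then 60.7% to 62.6%.

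EPHA3 had 50, 71 and 47 counts in the siCTRL libraries and 9, 19 and 13 in siSFPQ, a log2 fold change of -2.03 (SE 0.323). EPHA6 had 262, 247 and 249 counts against 82, 80 and 68, a log2 fold change of -1.72 (SE 0.139). Both groups of libraries stood clearly apart in each gene. EPHA5, also a long gene at 351 kb, fell less, from 1040 ± 30.9 to 614 ± 8.53 normalized counts, a log2 fold change of -0.76. EPHA10, which lacks kinase activity, rose from 91, 133 and 129 counts to 221, 279 and 256. This was the largest rise among the members with a mean of at least 1 CPM, with a log2 fold change of 1.09 with an SE of 0.139 (adjusted p = 4.66e-08). EPHA4 rose by 0.61 on the log2 scale, from 522 ± 102 to 797 ± 31.7 normalized counts (mean ± SD of 3 libraries), although it spans 156 kb. EPHA2, a receptor often abundant in tumour cells, rose mildly, from 7227 ± 219 to 9448 ± 373 normalized counts, a log2 fold change of 0.39. EPHA2 made up 88.2% to 89.6% of the summed EPHA level per kilobase of merged exon in siCTRL and 90.8% to 91.8% in siSFPQ. That sum was higher in siSFPQ, at 52.7 to 56.4 RPKM against 41.5 to 43.6 RPKM, while 3 members of the family fell. EPHA1 had 6 to 21 counts and EPHA8 14 to 30 counts in every library, and neither passed the test (adjusted p = 0.286 and 0.988). EPHA7 had at most 5 counts in any library.

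EPHA8 and EPHB2 lie near each other on chromosome 1 (EPHA8 from 22563489 to 22603595), on the same strand, with the C1Q genes between them. EPHA8, at 40.1 kb, had a fitted log2 fold change of 0.01 with an SE of 0.382, which its few reads make wide, while EPHB2 fell as described. On the part of chromosome 3 from the start of ROBO2 (75906695) to the end of EPHA6 (97761532) lie ROBO2, ROBO1, EPHA3 and EPHA6. All of them passed -1.5, and they span 375 to 1743 kb. That limit was passed by 4.97% of the protein-coding genes tested. It was passed by 24.2% of those from 200 to 500 kb and 43.8% of those over 500 kb. EPHB1, EPHB3, PLXNA1, PLXNB1 and PLXND1 lie elsewhere on the same chromosome, and of these 2 rose, 3 fell and only EPHB1 passed -1.5. EPHB1 spans 465 kb and the others 20.6 to 54.7 kb. The limits of the part were set by the members themselves, and whether location played a part was not tested.

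The ephrins, the ligands of the Eph receptors, are mostly short genes and mostly changed little. EFNA5 (chromosome 5, 107376894 to 107670937) is the exception in length at 294 kb and was the only one past the limit with an adjusted p under 0.05. It had 473, 481 and 496 counts in the siCTRL libraries and 177, 151 and 158 in siSFPQ, a log2 fold change of -1.58 with an SE of 0.106 (adjusted p = 1.61e-14). EFNA1, the main partner of EPHA2, rose from 405, 415 and 399 counts to 695, 701 and 754, a log2 fold change of 0.81 (SE 0.079). Here the lowest siSFPQ library was above the highest siCTRL library by a wide margin. EFNA4 rose by 0.28 on the log2 scale, but shares exons with the read-through gene, so that its count is uncertain. EFNA2 and EFNA3 did not pass the test (adjusted p = 0.134 and 0.694). In the ephrin-B group EFNB3 had 1609, 1665 and 1612 counts in siCTRL and 1451, 1359 and 1538 in siSFPQ, a small fall of 0.17 on the log2 scale (adjusted p = 0.0111) that was lost without siSFPQ replicate 2 (adjusted p = 0.0708) and with library size alone (adjusted p = 0.104). EFNB1 went from 1454 ± 19.6 to 1458 ± 49.3 normalized counts (mean ± SD of 3 libraries, adjusted p = 0.97). EFNB2, the ephrin of arteries, was nearly absent, with 3 to 10 counts in siCTRL and 1 or 2 in siSFPQ. Its fitted log2 fold change of -2.08 had an SE of 1.02 and did not pass the test (adjusted p = 0.0996).

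The plexins had the highest summed level per length of the receptor families. It was 130 to 138 RPKM in siCTRL and 165 to 168 RPKM in siSFPQ. Of the 9 plexins 5 rose, against 28.0% of the protein-coding genes tested. PLXND1 (chromosome 3, 129555214 to 129606676), a receptor for class 3 semaphorins in vessels, had 5527, 6074 and 5240 counts in the siCTRL libraries and 10557, 10881 and 11038 in the siSFPQ libraries. It nearly doubled, with a fold of 1.92 and a log2 fold change of 0.94 with an SE of 0.043 (adjusted p = 3.88e-19). PLXNB2, by far the most abundant member with 83.8 RPKM in siCTRL and 105 RPKM in siSFPQ, rose by 0.32 on the log2 scale. PLXNA2 rose from 1067 ± 83.8 to 1579 ± 17.4 normalized counts (mean ± SD of 3 libraries), with a log2 fold change of 0.57, and was the only member over 200 kb that did not fall. PLXNB1 and PLXNB3 rose by 0.14 and 0.22, the latter with an adjusted p above 0.05 when siCTRL replicate 2 or 3 or siSFPQ replicate 1 or 3 was left out (0.0576 to 0.0938). PLXNA4, at 525 kb the longest plexin gene, had 256, 329 and 322 counts in siCTRL and 116, 145 and 102 in siSFPQ, a log2 fold change of -1.33 with an SE of 0.134 (adjusted p = 3.64e-10). It lies just outside the limit of -1.5, where SLIT2 and EFNA5 lie just inside. PLXNA3 and PLXNA1 fell by 0.24 and 0.13 on the log2 scale; PLXNA1 lost its call without siCTRL replicate 2, without siSFPQ replicate 1 and with library size alone (adjusted p = 0.0958, 0.124 and 0.188). PLXNC1 did not pass the test (adjusted p = 0.882). Counts are uncertain where a member overlaps another protein-coding gene, on the opposite strand for EPHB4, EPHA1, UNC5A, PLXNC1 and PLXNA3 and on the same strand for PLXNB3 and UNC5CL.

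The fall was more frequent in genes of longer span. Of the 23 members under 50 kb, 9 rose, 4 fell and none passed -1.5 with an adjusted p under 0.05. Of the 9 members from 200 to 500 kb, 8 fell and 7 passed -1.5, and of the 7 over 500 kb all fell and 5 passed -1.5. Of the 5 members from 50 to 100 kb, 3 fell and 1 passed -1.5, and of the 5 from 100 to 200 kb, 2 fell and none passed. The median log2 fold change was 0.07 under 50 kb, -0.13 from 50 to 100 kb and 0.03 from 100 to 200 kb. It was -2.03 from 200 to 500 kb and -2.07 over 500 kb. All these classes but the shortest hold fewer than 20 members. Over all members tested, Spearman's correlation of log2 fold change with span was -0.632 (n = 49 genes, which share the libraries and are not replicates). It was -0.651 with the longest intron in place of the span and -0.289 with the merged exon length.

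**Figure D3:**
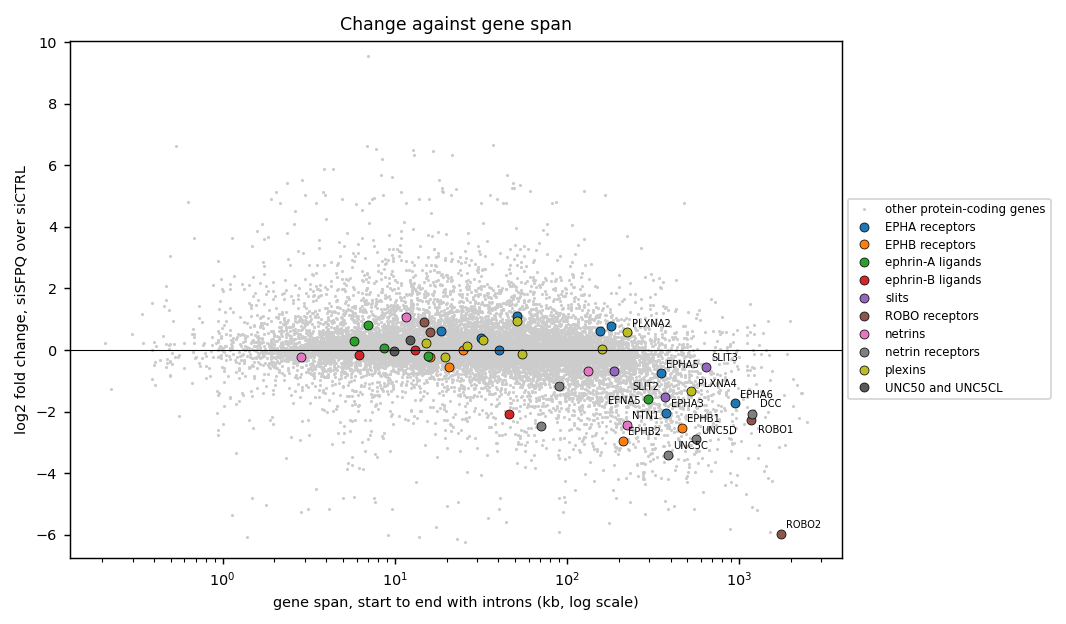
Log2 fold change (y axis, siSFPQ over siCTRL) against gene span (x axis, kb, log scale) for the 49 tested genes, coloured by family and named over 200 kb, on the other protein-coding genes in grey. The coloured points lie about 0 at short spans and, PLXNA2 aside, below 0 over 200 kb.

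Falls were also more frequent at longer span over all protein-coding genes tested, members included, so that direction is not particular to the guidance genes. There 21.6% fell under 50 kb, 67.0% from 200 to 500 kb and 72.1% of the 308 genes over 500 kb. A log2 fold change under -1.5 was passed by 1.48%, 24.2% and 43.8% of these classes, with median log2 fold changes of 0.07, -0.65 and -1.37. Beside these, the members had shares of 17.4%, 88.9% and 100% fallen and of 0%, 77.8% and 71.4% past the limit. Whether the long guidance genes fell more than other genes of their span was not tested. The Spearman correlation was -0.275 over the 16477 protein-coding genes, and -0.613 and -0.302 over the 41 members and the 12958 protein-coding genes with a mean of at least 1 CPM. The median span of the tested members was 51.5 kb, against 32.7 kb over the protein-coding genes tested. Span alone did not order the members: UNC5A (70.4 kb) and UNC5B (90.3 kb) fell more than SLIT3 (639 kb), EPHA4 (156 kb) and PLXNA2 (222 kb) rose, and EPHB2 (211 kb) fell more than EPHA6 (947 kb). With the mean level in CPM, the Spearman correlation over the members was 0.094.

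Other genes of these pathways were taken from lists of textbook partners, chosen with earlier results of these data known. Of 13 semaphorins of classes 4 to 7, ligands of the plexins, 4 (30.8%) were higher, 4 (30.8%) lower and none past 1.5 in either direction. These shares are near the 28.0% and 30.9% of the protein-coding genes tested, so they are not a result about the semaphorins. SEMA6D showed the largest rise, from 59, 34 and 46 to 100, 89 and 86 counts (log2 fold change 0.98), although it spans 590 kb, and, of those with a mean of at least 1 CPM, SEMA5A the largest fall, from 78, 80 and 65 to 32, 51 and 48 counts (log2 fold change -0.77). Among 17 tested ligands and co-receptors, such as the netrin receptor NEO1, the UNC5 ligands FLRT1 to FLRT3 and the netrin-G proteins, 14 fell, 1 rose and 5 passed -1.5, with a median log2 fold change of -0.99. The largest fall with a mean of at least 1 CPM was that of NRCAM, a cell adhesion co-receptor, from 146, 163 and 138 to 26, 15 and 12 counts (log2 fold change -3.07), and the 1 rise was that of RGMB, at 0.19. FLRT2, a ligand of UNC5 receptors, fell from 2518 ± 167 to 338 ± 33.2 normalized counts (mean ± SD of 3 libraries). FLRT2 and NEO1 were chosen for mention after their values were seen. Of 48 cytoplasmic effectors, which carry the signal to the cytoskeleton, 31 fell, 7 rose and 7 passed -1.5. DPYSL5, of the collapsin response mediator family, fell from 468, 493 and 517 to 51, 47 and 34 counts (log2 fold change -3.49), and NGEF, an exchange factor that acts below EPHA receptors, rose from 292, 238 and 244 to 537, 556 and 531 counts (log2 fold change 1.06). These counts stand against 22.1% lower and 22.4% higher among all genes tested, and 30.9% and 28.0% among the protein-coding genes. The limit of -1.5 was passed by 4.77% of all genes tested and 4.97% of the protein-coding genes. The median spans of the 3 lists were 39.2, 124 and 145 kb, against 32.7 kb over the protein-coding genes tested. Of the protein-coding genes from 100 to 200 kb, 48.3% fell and 8.62% passed -1.5. Whether the lists fell more than other genes of their span was not tested.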

How the data were processed

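The authors checked reads with FastQC, aligned them with STAR 2.7.9a (Ensembl GRCh38), and deposited the unnormalized count of every Ensembl gene in 6 libraries (submitters' processing notes and the paper's methods); the strand setting of the counting is not given in the sources used here, so counts of genes that overlap others are uncertain. Totals and the precision they give stand in the report. Names, classes and spans come from GENCODE 44 (GRCh38), matched by identifier for 60463 of 60664 genes, and sequences from RefSeq tables (GRCh38.p14). Genes with at least 10 counts in total went into the quasi-likelihood test of edgeR 4.0.16 (R 4.3.3, TMM scaling, condition as the only term), and p was adjusted by Benjamini-Hochberg across 29022 genes; standard errors come from the fold change and test statistic. Normalized counts and CPM use effective library sizes, and RPKM divides CPM by merged exon length. Calls needed an adjusted p under 0.05, and the stricter ones a log2 fold change beyond 1.5, as in the study. The test was checked on simulated counts. Replicates are biological triplicates by the paper's account; within a condition, chi-square over its degrees of freedom was 4.07 to 5.96 for pairs of libraries, so no library was a repeat.

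Members and lists were chosen with earlier results of these data known. Per-library counts are given for SFPQ, for members past 1.5 and, in each family, for the largest rise and fall with an adjusted p under 0.05 and a mean of at least 1 CPM; in the pathway lists the largest rise and fall are named, and other genes by exception. Alternatives were other filters, RLE or library size alone, DESeq2 1.42.0, a replicate block, protein-coding genes only, a fold limit of 1, other measures of span, and each library left out; of the span measures, the nearest RefSeq start, and the set without UNC50 and UNC5CL, were added after seeing the data.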

Additional observations from a re-analysis of the deposited data

How the results depend on the processing

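The 13 members past -1.5 numbered 12 or 13 under every alternative in filter, scaling or test and stayed at 13 with each library left out; 12 came from ROBO2, not tested under filterByExpr, and from SLIT2 with library size alone. With a fold limit of 1 in place of 1.5, 15 were lower and 2 higher, against 0 higher before. Members with an adjusted p under 0.05 numbered 22 to 24 lower and 11 to 13 higher; the calls lost in at least 1 setting were those of NTN5, PLXNA1, PLXNB3, EPHB6 and EFNB3. No called member changed direction. The Spearman correlation with gene span lay between -0.661 and -0.627 with single libraries left out, at -0.657 from the nearest RefSeq start and at -0.645 without UNC50 and UNC5CL; with merged exon length in place of span it was -0.289. The median log2 fold change lay between -0.223 and -0.157 with single libraries left out and was -0.122 with library size alone. Library size alone moved the median of all genes by 0.063 on the log2 scale. Same-numbered libraries of the groups were not shown to be pairs (correlations of their deviations 0.0166, 0.115 and 0.0887), though each library correlated best with its own number. A replicate block gave 24 lower and 12 higher members, with 13 past -1.5, and cost only the call of NTN5. Depth limits EPHA7, EFNB2, EPHA1, EPHA8 and NTN5, whose intervals are wide.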
